A study of Mus musculus with 9 samples.

Results

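Radiation and a chemical carcinogen were set directly against each other in mouse melanocyte stem cells. The radiation was ionising (IR), and the chemical was the polycyclic aromatic hydrocarbon dimethylbenzanthracene (DMBA). The comparison set all 3 IR against all 3 DMBA libraries, 6 of the 9 libraries of the series, in a fit that took its spread from all 9. It covered 16051 of the 55359 genes in the count table, those that passed the filter on low counts. IR animals had received 5 Gy. DMBA animals had received an unstated dose by an unstated route, and for neither treatment do the labels state how long afterwards the cells were sorted. The 3 remaining libraries came from vehicle animals and give a baseline level beside the results. No separate sham group for the irradiation is described. Every animal carried the same genotype, Dct-H2B-GFP KI/+, in which a fluorescent histone is tied to Dct, a gene of melanin synthesis. Cells were purified from skin by FACS. Whether a library is 1 animal or a pool is not stated, nor that replicates are separate animals, so p-values measure the spread between these libraries.

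Melanocyte stem cells lie in the hair follicle and supply its pigment cells. Ionising radiation breaks DNA directly, and DNA breaks activate the transcription factor p53, which switches on genes of growth arrest, cell death and repair together with its own inhibitor Mdm2. The same damage can signal to NF-kB, a family of transcription factors that drives inflammatory, survival and antigen presentation genes and its own inhibitors. DMBA is a ligand of the aryl hydrocarbon receptor (AhR), which switches on cytochrome P450 enzymes such as Cyp1a1 and Cyp1b1. Those enzymes turn DMBA into the reactive forms that bind DNA.

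Total counts were between 7086109 and 7958389 in IR libraries, between 6938406 and 7871952 in DMBA libraries and between 7037979 and 8156905 in vehicle libraries. The melanocyte label was checked against its markers. The 12 melanocyte markers, Dct, Kit, Tyr and Pmel among them, were detected in every group, and none was at 0 throughout. Keratinocyte genes were present as well. Summed FPKM (read counts scaled for gene length and library size) of 16 basal keratinocyte markers was 3671, 790.1 and 1339 in IR libraries 1 to 3, against 2508, 3929 and 3555 in DMBA and 1429 to 2172 in vehicle libraries. In bulk RNA, fewer cells of a type and less RNA per cell cannot be told apart.

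Between the stresses, 157 genes were called (edgeR quasi-likelihood test, Benjamini-Hochberg adjusted p under 0.05), 0.978% of those tested. IR stood above DMBA in 141 of them (0.878%) and below it in 16 (0.0997%). The genes higher in IR were led by targets of p53 and NF-kB, among them Aen, Ccng1, Relb, Trp53inp1, Csf1, Sesn2 and Cdkn1a. The genes lower in IR were led by Cyp1a1, Cyp1b1 and Tiparp, all known targets of the AhR. Of the higher genes, 107 differed by a log2 fold change of at least 1, and of the lower genes 11 did.

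All 157 called genes had IR and DMBA libraries that did not overlap. Without any test, all 3 IR libraries stood above all 3 DMBA libraries in 7.89% of tested genes and below them in 6.98%. An unadjusted p under 0.05 was reached by 736 genes higher and 567 lower in IR. The median log2 fold change, IR over DMBA, was 1.44 over the called higher genes, -1.78 over the called lower genes and -0.02 over all genes tested. The counts depended on single libraries. Without IR 1 there were 206 higher and 215 lower calls, without IR 2 there were 88 and 11, and without DMBA 3 there were 85 and 11.

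**Figure D1:**
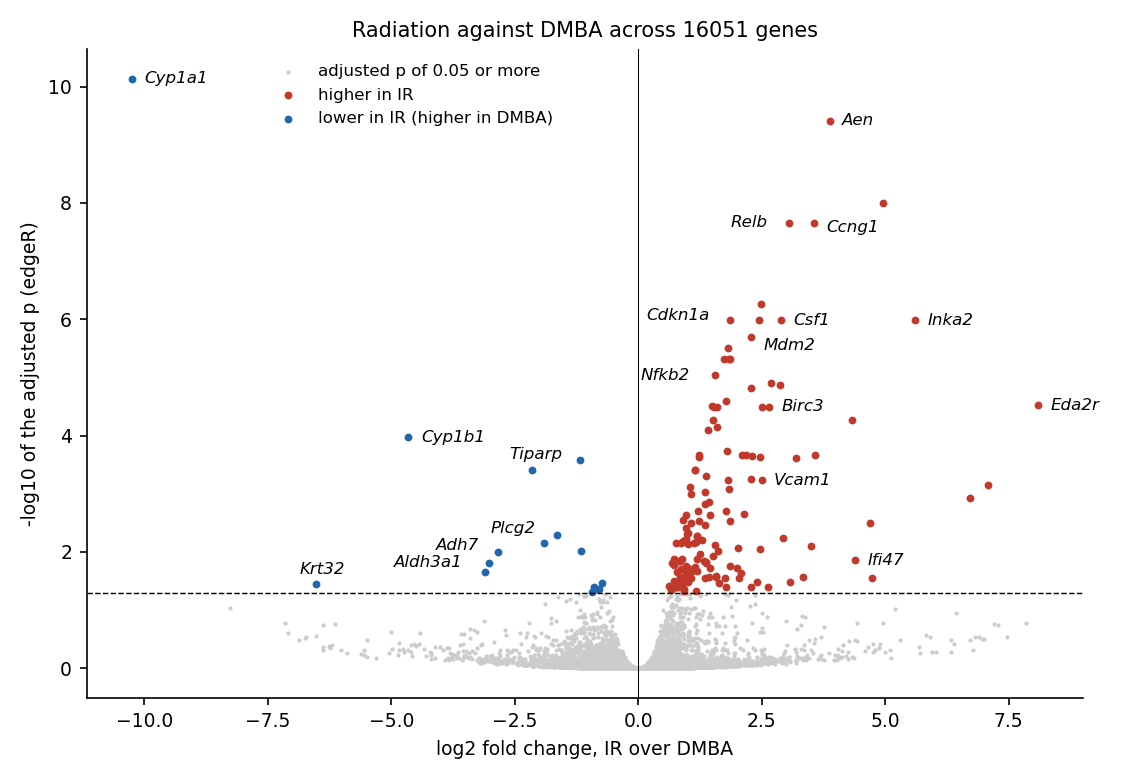
Each point is 1 of 16051 genes, with the log2 fold change of IR over DMBA on the horizontal axis and -log10 of the edgeR adjusted p on the vertical axis; the dashed line marks an adjusted p of 0.05. The 141 red points (higher in IR) lie along a dense branch with Aen at its top, and the 16 blue points (lower in IR) are few, with Cyp1a1 far to the left at -10.25.

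The called genes of the p53 pathway lay on the radiation side. Of 80 listed p53 genes, 76 were found in the table by symbol and 71 passed the filter. With all libraries, 22 of the 71 (31.0%) were called higher in IR and none lower, beside 0.878% and 0.0997% of all tested genes. Without IR 1, Perp and Trp63 of these lists were called lower in IR. The median log2 fold change of the 71 was 0.51, beside -0.02 over all genes. The lists were written with earlier results of these data known. The called members covered growth arrest (Ccng1, Trp53inp1, Sesn2, Cdkn1a), feedback (Mdm2), cell death (Aen, Apaf1, Eda2r), damage bypass (Polk) and Akt signalling (Phlda3). The IR and DMBA comparisons with vehicle share the vehicle libraries, so their values are given side by side and not compared by a test. The median log2 fold change of the 71 p53 genes was 0.61 for IR over vehicle and 0.12 for DMBA over vehicle.

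Among the arrest genes, Cdkn1a, which encodes the cyclin-dependent kinase inhibitor p21, had 925, 892 and 787 CPM (read counts relative to library size, scaled by TMM) in IR libraries, against 240, 276 and 204 CPM in DMBA and 231, 188 and 221 CPM in vehicle libraries. Every IR library was above every DMBA library, and DMBA and vehicle overlapped. The log2 fold change over DMBA was 1.86 ± 0.16 (SE), with an adjusted p of 1.03e-06. Ccng1, a cyclin G that takes part in the p53 and Mdm2 loop, had 571, 547 and 438 CPM in IR and 42.8, 37.6 and 52.4 CPM in DMBA libraries, 11.7-fold higher in IR (adjusted p = 2.21e-08). Vehicle libraries held 25.0, 44.0 and 25.7 CPM, overlapping with DMBA. Trp53inp1, a nuclear partner that promotes p53 activity, had 507, 642 and 586 CPM in IR and 94.1, 119 and 96.8 CPM in DMBA libraries (log2 fold change 2.49 ± 0.20, adjusted p = 5.41e-07). Sesn2, a stress sensor that restrains mTORC1 growth signalling, had 193, 207 and 182 CPM in IR and 29.0, 38.1 and 39.8 CPM in DMBA libraries (2.44 ± 0.21, adjusted p = 1.03e-06). For both, the lowest IR library was above the highest DMBA and vehicle libraries. In all, 7 of 17 tested arrest genes were called, all higher in IR, with Gtse1, Zmat3 and Plk2 completing the count. Beside this, 0.878% of all tested genes were called higher.

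Parts of the promoters of Cdkn1a and Ccng1 are shown because both genes were among the strongest calls and both hold the p53 consensus decamer near the annotated start used here. Other starts that a gene may have are not shown. The sequences are RefSeq's for GRCm38.p6, 250 bases before to 50 bases after the annotated start, 5′ to 3′ on the gene's strand: Cdkn1a from chr17:29090729-29091028 on the plus strand and Ccng1 from chr11:40755237-40755536 on the minus strand. Capitals mark the decamer, searched on both strands. It begins 73 and 51 bases before the start in Cdkn1a and 185 bases before it in Ccng1.
Cdkn1a: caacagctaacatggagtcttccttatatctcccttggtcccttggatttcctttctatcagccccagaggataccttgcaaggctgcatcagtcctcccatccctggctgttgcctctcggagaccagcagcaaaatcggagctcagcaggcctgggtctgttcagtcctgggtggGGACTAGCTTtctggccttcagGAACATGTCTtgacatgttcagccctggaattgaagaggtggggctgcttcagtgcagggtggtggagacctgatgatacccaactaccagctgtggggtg
Ccng1: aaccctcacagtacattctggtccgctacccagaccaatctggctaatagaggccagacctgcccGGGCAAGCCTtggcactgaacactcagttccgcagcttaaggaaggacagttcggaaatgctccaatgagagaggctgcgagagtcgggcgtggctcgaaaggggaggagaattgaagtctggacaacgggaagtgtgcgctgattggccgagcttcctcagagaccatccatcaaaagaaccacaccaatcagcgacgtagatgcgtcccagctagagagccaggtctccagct

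A promoter was found for 10582 of the tested genes by symbol, and 8.21% of those windows hold the decamer. Of the 22 called p53 genes, 19 had a promoter and 9 of these (47.4%) held it, and of all 141 genes called higher in IR, 116 had a promoter and 21 (18.1%) held it. The p53 lists hold known targets of p53, and the 141 genes include the 22, so these shares are no separate support. A match of letters is a description and not a binding site, and a gene without one may have sites elsewhere.

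Among the regulators of p53, Mdm2, the ubiquitin ligase that degrades it, had 413, 532 and 380 CPM in IR, against 84.4, 114 and 74.3 CPM in DMBA and 136, 92.8 and 115 CPM in vehicle libraries. IR was above all others, and DMBA overlapped with vehicle (log2 fold change over DMBA 2.28 ± 0.20, adjusted p = 2.01e-06). Trp53, the gene of p53 itself, had 94.7, 84.0 and 113 CPM in IR and 39.7, 49.5 and 64.2 CPM in DMBA libraries. Its call was marginal at 0.93 ± 0.22 (adjusted p = 0.0462) and was lost in 16 of 22 alternatives, among them leaving out IR 2, IR 3, DMBA 1, DMBA 2 or any vehicle library. Ei24, a gene of the endoplasmic reticulum linked to apoptosis, had 176, 214 and 155 CPM in IR and 40.2, 43.7 and 67.9 CPM in DMBA libraries (1.84 ± 0.27, adjusted p = 8.23e-04). These were the 3 called genes of the 13 tested in the list of p53 and its regulators, with a median of 0.35. Over all tested genes, 0.878% were called higher. Of the 3, Trp53 is p53 itself, and Ei24 is also counted in the list of cell death genes. Mdm4, the second inhibitor of p53, had a log2 fold change of 0.46 ± 0.16 that did not pass (adjusted p = 0.324).

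Cell death genes of the p53 program had the highest median of the p53 groups, 1.84. Of 17 tested members 8 were called, all 8 higher in IR, beside 0.878% of all tested genes. Aen, a nuclease that acts in apoptosis, had 281, 339 and 309 CPM in IR, against 22.1, 19.1 and 21.8 CPM in DMBA and 21.4, 19.7 and 18.7 CPM in vehicle libraries. DMBA and vehicle lay within a few CPM of each other while IR was 14.7-fold above DMBA, with the smallest p of any higher gene (adjusted p = 3.84e-10). Apaf1, the scaffold of the apoptosome, had 187, 246 and 231 CPM in IR and 60.2, 67.7 and 55.0 CPM in DMBA libraries (1.86 ± 0.18, adjusted p = 4.75e-06). Eda2r, a member of the TNF receptor family, was nearly silent outside IR. It had 354, 297 and 258 counts in IR libraries, against 0, 0 and 3 counts in DMBA libraries. The ratio of the summed counts, 909 against 3 and scaled by library totals, was 302, with a 95% exact interval of 103 to 1465 that covers counting error only. The other called members of the list were Ei24, Bax, Bbc3, Tnfrsf10b and Dcxr. Dcxr encodes a carbonyl reductase, so the count of 8 includes a metabolic enzyme. The call of Dcxr was lost without DMBA 1 or DMBA 3, and that of Tnfrsf10b without any 1 of the IR and DMBA libraries except IR 1. Bax, a pore-forming killer of the mitochondrion chosen here after its values were seen, had 62.1, 61.9 and 65.4 CPM in IR and 8.99, 9.23 and 24.6 CPM in DMBA libraries. Perp, a p53 target that is also a desmosome gene of the epidermis, had 634, 94.1 and 233 CPM in IR and 440, 763 and 624 CPM in DMBA libraries and was not called (adjusted p = 0.545). Of 21 tested apoptosis genes outside the p53 lists, edgeR called 0, near the 0.978% of all tested genes, and DESeq2 called 1, higher in IR. An unadjusted p below 0.05 was reached by 2 above and 1 below DMBA.

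In the p53 group of repair, metabolism and other functions, 5 of 26 tested genes were called, all higher in IR. The share over all tested genes was 0.878%, and the group median was 0.28. Phlda3, an inhibitor of Akt signalling, had 135, 152 and 100 CPM in IR and 12.5, 25.8 and 14.3 CPM in DMBA libraries, and Phlda3 in vehicle libraries was lower still at 9.94, 6.33 and 8.48 CPM. The log2 fold change over DMBA was 2.88 ± 0.30 (adjusted p = 1.34e-05). Polk, a polymerase that copies past damaged bases, including those carrying hydrocarbon adducts, had 107, 109 and 120 CPM in IR and 24.3, 27.0 and 16.2 CPM in DMBA libraries (2.31 ± 0.31, adjusted p = 2.22e-04). Ephx1, the epoxide hydrolase that takes part in the activation of DMBA, was called higher in IR, unlike the other tested enzymes of its list. It had 260, 256 and 157 CPM in IR, against 27.2, 33.7 and 60.5 CPM in DMBA and 39.7, 37.7 and 16.1 CPM in vehicle libraries (2.47 ± 0.33, adjusted p = 2.35e-04). DMBA and vehicle libraries overlapped in Ephx1. The other called members were Tap1 and Dyrk3. In the wider list of DNA repair and checkpoint genes, 0 of 35 were called by edgeR, near the 0.978% of all tested genes. The median was 0.10, and 3 genes above and 1 below DMBA reached an unadjusted p below 0.05.

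**Figure D2:**
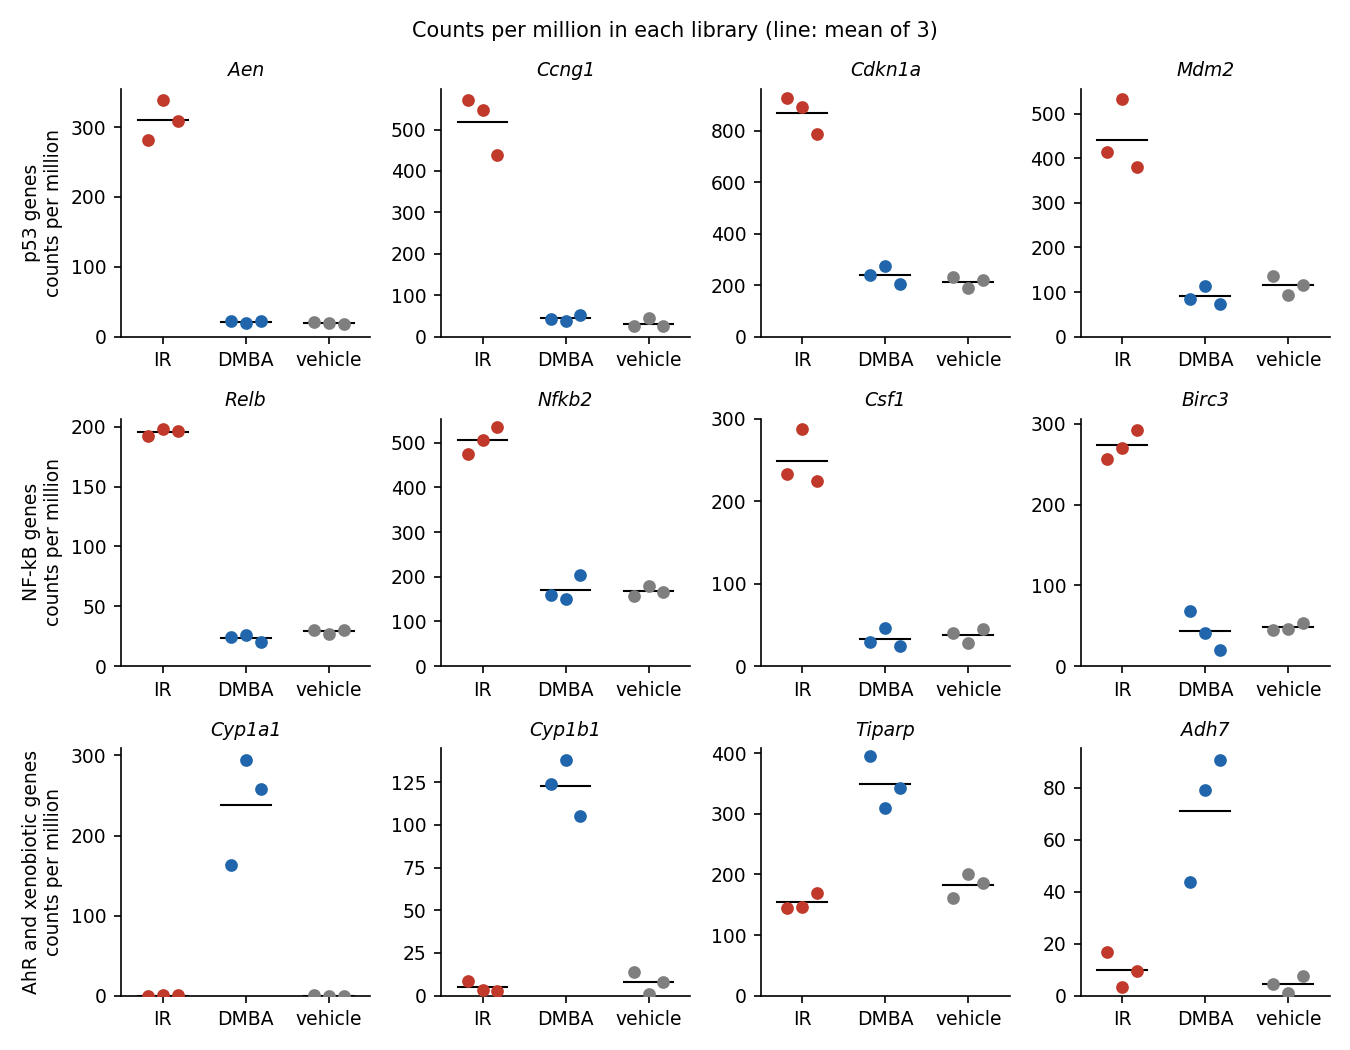
CPM in each library, by group in the order IR, DMBA and vehicle, for 4 p53 genes (top row), 4 NF-kB genes (middle row) and 4 AhR or xenobiotic genes (bottom row); lines are means of 3. In the top and middle rows IR stands apart and DMBA overlaps or lies close to vehicle, and in the bottom row DMBA stands apart.

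The called NF-kB genes also lay on the radiation side. Of 49 listed, 36 passed the filter and 13 of these (36.1%) were called, all higher in IR, beside 0.878% of all tested genes. The median log2 fold change of the 36 was 0.81, beside -0.02 over all genes tested. This list too was written with earlier results of these data known. Over vehicle the median of these 36 was 0.79 in IR and -0.06 in DMBA. The called genes held members of the family (Relb, Nfkb2, Rela, Nfkb1), its inhibitors (Nfkbia, Nfkbie, Tnip1) and its targets (Csf1, Birc3, Birc2, Vcam1, Irf1, Traf3). Neither part of the list had a member called lower. Many cytokine targets, Tnf, Il6, Il1b and Ccl2 among them, were removed by the filter on low counts and give no value here.

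Relb, the family member of the non-canonical branch, had 193, 198 and 197 CPM in IR, against 24.8, 25.8 and 19.9 CPM in DMBA and 29.95, 26.8 and 30.5 CPM in vehicle libraries. The IR libraries lay within a few CPM of each other and were 8.33-fold above DMBA (adjusted p = 2.21e-08), while all 3 DMBA libraries were below all 3 vehicle libraries. Nfkb2, the partner of Relb, had 476, 506 and 535 CPM in IR and 160, 150 and 204 CPM in DMBA libraries (1.56 ± 0.16, adjusted p = 9.23e-06). Nfkb2 overlaps Psd on the other strand in the annotation, and whether counting used the strand is not given in the sources used here. Nfkbie, a cytoplasmic inhibitor of NF-kB, had 174, 195 and 181 CPM in IR and 34.7, 24.1 and 27.0 CPM in DMBA libraries (2.68 ± 0.28, adjusted p = 1.25e-05). Nfkbia, the main inhibitor and a direct target, had 427, 449 and 370 CPM in IR, against 165, 158 and 210 CPM in DMBA and 133, 144 and 158 CPM in vehicle libraries (1.23 ± 0.16, adjusted p = 2.14e-04). In Nfkbia the highest vehicle library reached the lowest DMBA library, and IR lay above both groups. Tnip1, which helps a deubiquitinase to end signalling, had 167, 204 and 186 CPM in IR and 66.5, 67.0 and 76.6 CPM in DMBA libraries (1.41 ± 0.17, adjusted p = 7.89e-05). Beside 0.878% of all tested genes called higher in IR, 7 of 18 tested pathway genes were, with a median of 0.70. Of these, Rela lost its call without IR 2 or DMBA 3, and Nfkb1 without any 1 library except IR 1.

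Of 18 tested targets, 6 were called, beside 0.878% of all tested genes called higher, with a median of 1.21 over the 18. Csf1, a growth factor for macrophages, had 233, 287 and 224 CPM in IR, against 29.3, 45.8 and 24.8 CPM in DMBA and 40.1, 28.5 and 44.5 CPM in vehicle libraries. IR was 7.44-fold above DMBA, and DMBA and vehicle overlapped (adjusted p = 1.03e-06). Birc3, an inhibitor of apoptosis and ligase of NF-kB signalling, had 257, 270 and 293 CPM in IR and 68.7, 41.5 and 19.8 CPM in DMBA libraries (2.66 ± 0.30, adjusted p = 3.22e-05). Its neighbour on the chromosome and paralog Birc2 had 169, 233 and 183 CPM in IR and 81.9, 67.9 and 77.3 CPM in DMBA libraries (1.36 ± 0.19, adjusted p = 4.96e-04). Vcam1, an adhesion molecule for leukocytes, had 80.7, 40.8 and 56.4 CPM in IR and 13.1, 6.15 and 12.2 CPM in DMBA libraries (5.65-fold, adjusted p = 5.89e-04).

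Promoters of Nfkb2 and Nfkbia are shown since both belong to the pathway and hold the NF-kB consensus next to their start. They come from chr19:46304487-46304786 on the plus strand and chr12:55492598-55492897 on the minus strand, of the same RefSeq table and build, with matches in capitals. In Nfkb2 the matches begin 39, 38 and 11 bases before the start, the first of these overlapping, and in Nfkbia 29 bases before it.
Nfkb2: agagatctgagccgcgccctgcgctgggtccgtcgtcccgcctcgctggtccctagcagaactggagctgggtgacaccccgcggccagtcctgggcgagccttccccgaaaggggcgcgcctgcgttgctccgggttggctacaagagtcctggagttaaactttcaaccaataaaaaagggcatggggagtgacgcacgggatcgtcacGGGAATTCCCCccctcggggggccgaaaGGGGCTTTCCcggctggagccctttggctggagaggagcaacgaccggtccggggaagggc
Nfkbia: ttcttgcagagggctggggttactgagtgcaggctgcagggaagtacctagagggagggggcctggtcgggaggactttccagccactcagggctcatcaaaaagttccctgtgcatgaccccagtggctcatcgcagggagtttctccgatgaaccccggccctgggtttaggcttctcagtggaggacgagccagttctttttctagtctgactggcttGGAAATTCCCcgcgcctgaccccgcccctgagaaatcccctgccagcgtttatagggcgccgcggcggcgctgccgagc
The consensus was present in 6.26% of the promoters of tested genes, in 17 of 116 (14.7%) of the genes called higher in IR and in 7 of 10 of the called NF-kB genes with a promoter. Those 10 come from lists of known NF-kB genes and are counted in the 116, so these shares are no separate support.

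A minority of antigen presentation and interferon response genes were called, with a wide spread among the IR libraries. Of 20 tested antigen presentation genes, 4 were called, all higher (Tap1, Tapbp, H2-Q4 and Tap2), with a median of 0.79 and 18 of 20 positive. Of 30 tested interferon genes, 5 were called, all higher (Rnf213, Parp14, Ifi47, Gbp2 and Gbp3), with a median of 0.99 and 28 of 30 positive. Over all tested genes, 48.5% were positive and 0.878% were called higher. Tap1, a chain of the peptide transporter for class I molecules that the p53 list also holds, had 254, 183 and 134 CPM in IR, against 74.2, 78.6 and 69.4 CPM in DMBA and 105, 112 and 108 CPM in vehicle libraries. IR 1 was the highest, and DMBA lay below vehicle with no overlap (log2 fold change over DMBA 1.36 ± 0.20, adjusted p = 9.16e-04). Tapbp, which loads peptides onto class I molecules, had 296, 177 and 161 CPM in IR and 84.2, 80.9 and 82.2 CPM in DMBA libraries (1.36 ± 0.21, adjusted p = 0.00152). H2-Q4, a class I gene of the Qa family whose reads may be shared with close paralogs, had 562, 370 and 297 CPM in IR and 168, 174 and 202 CPM in DMBA libraries (1.18 ± 0.21, adjusted p = 0.00669). Again IR 1 was the highest and no DMBA library reached any IR library. Tap1 overlaps Psmb9 and Tapbp overlaps Zbtb22 in the annotation, so reads of these genes could be shared.

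Rnf213, a large ubiquitin ligase induced by interferon, had 564, 658 and 468 CPM in IR and 241, 168 and 151 CPM in DMBA libraries (1.59 ± 0.19, adjusted p = 7.17e-05). Parp14, an ADP-ribosyltransferase induced by interferon, had 153, 146 and 89.1 CPM in IR and 52.8, 49.6 and 39.0 CPM in DMBA libraries (1.45 ± 0.24, adjusted p = 0.00227). Gbp2, a guanylate-binding protein of host defence, had 286, 102 and 55.6 CPM in IR and 46.2, 37.3 and 27.7 CPM in DMBA libraries (1.99 ± 0.41, adjusted p = 0.019). Ifi47, an interferon-inducible GTPase whose gene overlaps Olfr56, had 25.6, 13.3 and 8.36 CPM in IR and 1.16, 0.513 and 0.549 CPM in DMBA libraries (adjusted p = 0.0139). In Gbp2 and Ifi47 the groups were apart, with IR 1 far above IR 3. Leukocyte markers were highest in that library too. The summed FPKM of 20 markers was 68.3, 5.65 and 8.31 in IR, against 20.6, 18.9 and 8.47 in DMBA and 8.12 to 25.1 in vehicle libraries. Most of the sum in IR 1 came from genes of class II antigen presentation, which professional antigen-presenting cells express. Cd74, the class II chaperone, had 27.2, 1.56 and 2.19 FPKM in IR, against 7.77, 10.2 and 6.18 FPKM in DMBA libraries. H2-Ab1, a class II chain, had 21.5, 0.15 and 2.58 FPKM in IR, against 3.62, 2.32 and 0.62 FPKM in DMBA libraries. H2-Aa, its partner chain, had 8.54 FPKM in IR 1 and at most 0.67 FPKM in IR 2 and IR 3, and Cd207, a lectin of Langerhans cells, had 3.30 FPKM in IR 1 and at most 0.19 FPKM in those libraries. The markers Lyz2, Tyrobp and Cd8a were at 0 in every library, and Ptprc was at most 0.16 FPKM. The part of such cells in the antigen presentation and interferon values was not tested beyond leaving out IR 1. Without IR 1, Tap1, Tapbp, H2-Q4 and Tap2 stayed called (adjusted p from 1.20e-03 to 0.0155), Gbp2 had an adjusted p of 0.0493 with a log2 fold change of 1.09, and Ifi47 lost its call (adjusted p = 0.0951). Leaving out DMBA 2 or DMBA 3 ended the calls of Gbp2 and Ifi47, and leaving out IR 2, DMBA 1 or DMBA 3 those of Tap2 and Gbp3. Without DMBA 3, 2 of the 30 interferon genes were called, and without IR 3, 7 of the 20 antigen presentation genes.

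**Figure D3:**
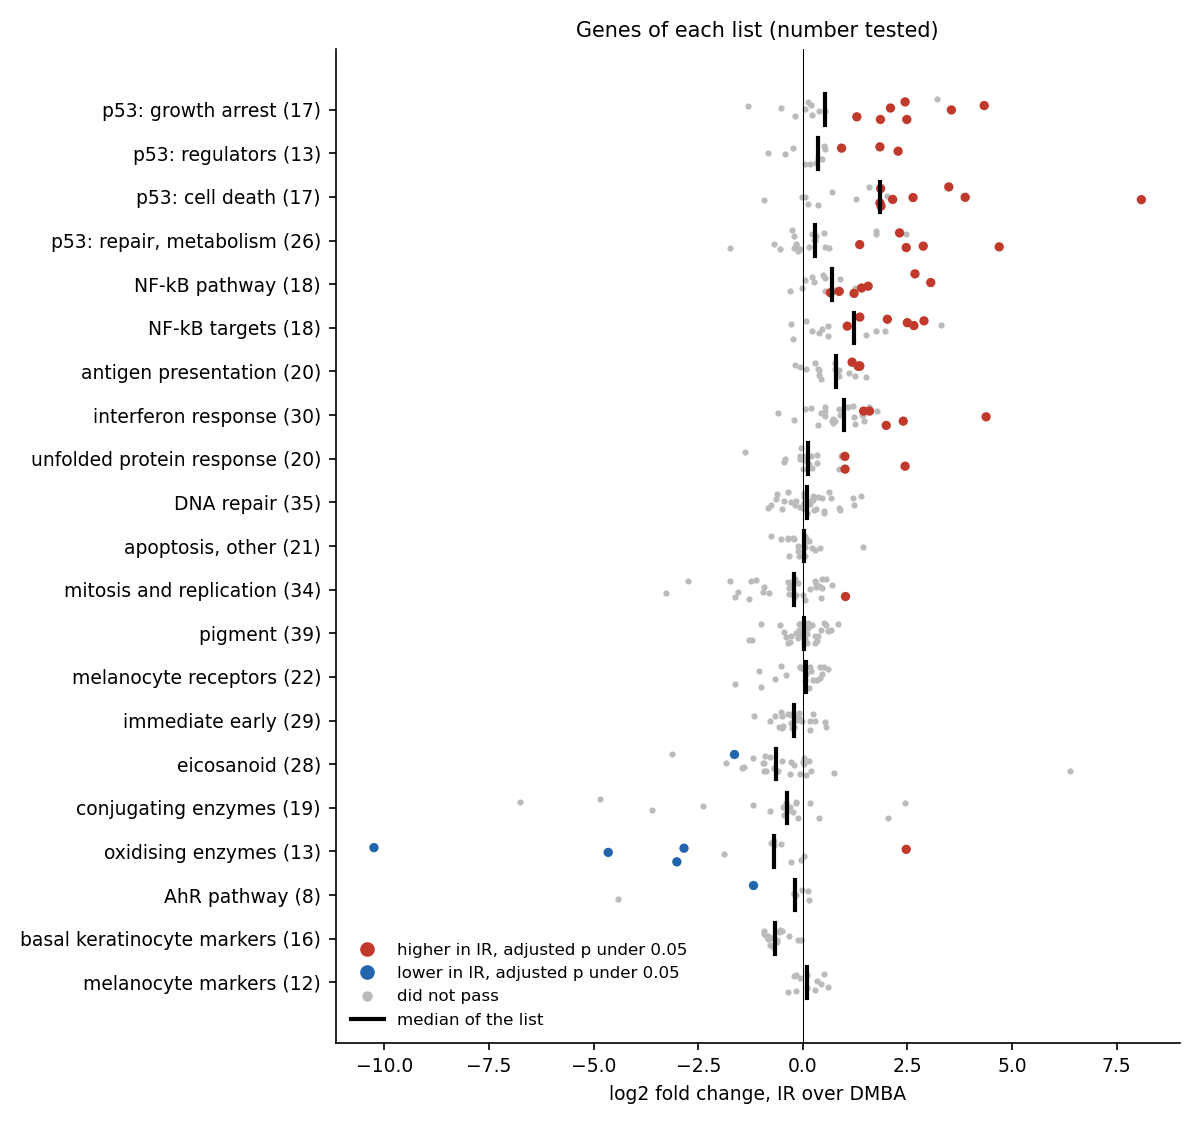
Log2 fold changes of IR over DMBA for the tested genes of 21 lists (number tested in brackets), with called genes in red (higher in IR) or blue (lower in IR) and the list's median as a black bar. Called genes gather on the right in the p53, NF-kB, antigen presentation and interferon rows and on the left, Ephx1 apart, in the rows of oxidising enzymes and the AhR pathway; with all libraries the rows of DNA repair, pigment and melanocyte receptors hold none.

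Called genes of the AhR program lay on the DMBA side. Of 13 tested oxidising and hydrolysing enzymes of foreign compounds, 4 were called lower in IR (Cyp1a1, Cyp1b1, Adh7 and Aldh3a1) and 1 higher (Ephx1), with a median of -0.70. Of 8 tested genes of the AhR pathway, 1 was called, Tiparp, which was lower in IR, and the median was -0.19. Over all tested genes, 0.0997% were called lower and 0.878% higher in IR, with a median of -0.02. The receptor was expressed in all groups without passing the test. Ahr had 89.8, 96.7 and 98.9 CPM in IR, against 109, 100 and 120 CPM in DMBA and 115, 91.4 and 125 CPM in vehicle libraries (log2 fold change -0.20 ± 0.18, adjusted p = 0.888).

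Cyp1a1, the cytochrome P450 that is the classic AhR target, had 0, 0.271 and 0.288 CPM in IR, against 163, 295 and 258 CPM in DMBA and 0.246, 0.135 and 0.144 CPM in vehicle libraries. IR and vehicle were both near 0, with 0, 2 and 2 counts in IR against 1270, 2298 and 1881 counts in DMBA. The ratio of summed counts, IR 4 and DMBA 5449, was 1369 as DMBA over IR (95% exact interval 534 to 5025, counting error only), and the adjusted p of 7.34e-11 was the smallest of all genes. Cyp1b1, the P450 that activates DMBA in many tissues outside the liver, had 8.75, 3.25 and 2.45 CPM in IR, against 124, 138 and 105 CPM in DMBA and 14.1, 1.21 and 8.19 CPM in vehicle libraries. IR overlapped with vehicle and DMBA was 25.1-fold above IR (adjusted p = 1.08e-04). Tiparp, an ADP-ribosyltransferase that the AhR induces and that represses the AhR in turn, had 145, 147 and 170 CPM in IR, against 396, 309 and 342 CPM in DMBA and 161, 201 and 186 CPM in vehicle libraries (log2 fold change -1.18 ± 0.16, adjusted p = 2.66e-04). These 3 genes kept their call in all 22 alternatives. Ahrr, the receptor's repressor, had 0.125, 0 and 0.865 CPM in IR and 6.93, 4.36 and 10.4 CPM in DMBA libraries, with 0 in all vehicle libraries. At these counts Ahrr did not pass (adjusted p = 0.244), though its groups did not overlap.

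The promoters of Cyp1a1, Cyp1b1 and Tiparp are shown as those of the genes that mark the DMBA side most firmly. They are chr9:57697363-57697662 on the plus strand, chr17:79715012-79715311 on the minus strand and chr3:65528197-65528496 on the plus strand, of the same table and build. Capitals mark GCGTG, the core of the AhR response element, or its reverse complement CACGC, which begins 54, 76 and 170 bases before the start, in that order.
Cyp1a1: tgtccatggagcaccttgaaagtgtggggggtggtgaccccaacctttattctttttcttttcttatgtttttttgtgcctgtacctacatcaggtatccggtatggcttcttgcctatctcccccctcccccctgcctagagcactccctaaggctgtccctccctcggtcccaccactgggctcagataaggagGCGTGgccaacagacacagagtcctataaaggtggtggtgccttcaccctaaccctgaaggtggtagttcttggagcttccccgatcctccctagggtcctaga
Cyp1b1: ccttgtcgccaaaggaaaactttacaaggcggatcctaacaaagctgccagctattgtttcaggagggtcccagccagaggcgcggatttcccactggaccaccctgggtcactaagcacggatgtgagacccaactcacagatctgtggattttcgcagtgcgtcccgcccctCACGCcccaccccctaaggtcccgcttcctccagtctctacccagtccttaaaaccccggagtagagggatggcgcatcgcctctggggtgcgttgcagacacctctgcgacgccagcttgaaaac
Tiparp: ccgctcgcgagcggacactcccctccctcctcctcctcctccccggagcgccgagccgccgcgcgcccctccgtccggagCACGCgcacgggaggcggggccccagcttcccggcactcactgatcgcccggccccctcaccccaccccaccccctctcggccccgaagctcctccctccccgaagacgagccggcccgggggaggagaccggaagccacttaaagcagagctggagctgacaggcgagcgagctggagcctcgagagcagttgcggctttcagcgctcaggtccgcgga
A core of 5 bases is common: 55.8% of the promoters of tested genes hold it, beside 11 of 14 (78.6%) of the genes called lower in IR and 56 of 116 (48.3%) of those called higher.

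Adh7, an alcohol dehydrogenase of epithelia, had 16.6, 3.39 and 9.66 CPM in IR, against 43.5, 79.0 and 90.7 CPM in DMBA and 4.30, 1.08 and 7.62 CPM in vehicle libraries (log2 fold change -2.84 ± 0.54, adjusted p = 0.00986). Aldh3a1, an aldehyde dehydrogenase inducible through the AhR, had 30.2, 4.47 and 2.16 CPM in IR, against 67.3, 107 and 126 CPM in DMBA and 8.59, 11.3 and 14.8 CPM in vehicle libraries (-3.01 ± 0.61, adjusted p = 0.0154). In both, IR 1 was the IR library nearest to DMBA, as it was in the keratinocyte markers. All 16 basal keratinocyte markers had a negative log2 fold change, with a median of -0.66, and none was called or at 0. Of all tested genes, 48.5% had a positive one. Their median over vehicle was 0.12 in IR and 0.83 in DMBA. With the keratinocyte level of each library in the fit, Adh7 had an adjusted p of 0.196 and Aldh3a1 of 0.0324, while Cyp1a1 (1.33e-10), Cyp1b1 (5.15e-04) and Tiparp (1.38e-03) kept their calls. Without DMBA 3, Adh7 and Aldh3a1 lost their calls and 2 of the 13 enzymes were called lower in IR.

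Conjugating enzymes and transporters held no call. Of 19 tested, edgeR called 0, near the 0.978% of all tested genes. An unadjusted p below 0.05 was reached by 0 above and 4 below DMBA, and the median was -0.38. Without IR 1 Gstm2 was called lower in IR, and DESeq2 called 1 of them lower. Nqo1, a quinone reductase that the AhR and Nrf2 induce, had 0.375, 0.271 and 1.01 CPM in IR, against 6.93, 3.59 and 9.88 CPM in DMBA and 1.84, 0.135 and 2.44 CPM in vehicle libraries (adjusted p = 0.254). Ugt1a7c, a glucuronosyltransferase, had 0, 0.406 and 0 CPM in IR, against 1.54, 6.15 and 5.35 CPM in DMBA and 0 in vehicle libraries (adjusted p = 0.37). Both had higher values in every DMBA library than in any IR library. The list of Nrf2 targets had 0 of 26 called in edgeR, also near that share, and a median of -0.11. Of the 26, 2 above and 1 below DMBA reached an unadjusted p below 0.05.

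Prostaglandin and related lipid mediator genes had mostly negative fold changes, and few passed. Of 28 tested eicosanoid genes, 21 had a negative log2 fold change, the median was -0.64 and 1 was called. Over all tested genes, 48.5% had a positive log2 fold change and 0.978% were called. That gene was Plcg2, a phospholipase C of receptor signalling and not an enzyme of prostaglandin synthesis. Plcg2 had 22.7, 19.1 and 16.1 CPM in IR, against 52.1, 71.4 and 58.2 CPM in DMBA and 12.9, 16.6 and 22.99 CPM in vehicle libraries. IR and vehicle overlapped and DMBA was above both (log2 fold change -1.65 ± 0.29, adjusted p = 0.00502). Ptgs2, the inducible cyclooxygenase, had 1.75, 0 and 4.76 CPM in IR and 11.8, 24.5 and 20.7 CPM in DMBA libraries (adjusted p = 0.151). Fabp5, a fatty acid carrier of the epidermis, had 117, 56.1 and 86.0 CPM in IR and 138, 236 and 123 CPM in DMBA libraries (adjusted p = 0.146). With the keratinocyte level in the fit Plcg2 lost its call (adjusted p = 0.123), and without IR 1 there were 6 eicosanoid genes called lower in IR. The part of keratinocyte RNA in this list was not tested beyond these values.

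The remaining genes called lower in IR formed no fixed list. Hebp1, a heme-binding protein, had 8.37, 8.80 and 12.8 CPM in IR and 35.1, 31.5 and 46.1 CPM in DMBA libraries (log2 fold change -1.91 ± 0.35, adjusted p = 0.007). Adssl1, an enzyme of AMP synthesis, had 34.4, 45.5 and 45.4 CPM in IR and 97.6, 92.0 and 88.3 CPM in DMBA libraries (-1.15 ± 0.22, adjusted p = 0.0095). Igfbp3, a secreted carrier of insulin-like growth factors, had 26.7, 0.406 and 22.8 CPM in IR, against 122, 165 and 142 CPM in DMBA and 10.3, 27.1 and 31.8 CPM in vehicle libraries (-3.10 ± 0.66, adjusted p = 0.0223). In each of them the IR libraries overlapped with vehicle, and DMBA stood above every IR and vehicle library. With the keratinocyte level in the fit the adjusted p was 0.055 for Hebp1, 0.0115 for Adssl1 and 0.27 for Igfbp3. Hebp1 lost its call without DMBA 3 (adjusted p = 0.0741), Adssl1 without DMBA 1 (adjusted p = 0.0561) and Igfbp3 without DMBA 2 or DMBA 3. Krt32, a hair keratin, had 1 count in all IR libraries together and 128 counts in DMBA libraries, a ratio of 129 as DMBA over IR (95% exact interval 22.7 to 5119). Its adjusted p was 0.0355, and 0.352 with the keratinocyte level, and the call was lost without any 1 of the 6 IR and DMBA libraries. Mef2c, a transcription factor that acts in melanocytes and muscle, had 53.9, 69.7 and 71.6 CPM in IR and 141, 110 and 102 CPM in DMBA libraries (-0.85 ± 0.20, adjusted p = 0.0432). Inhbb, a subunit of activin B, had 52.7, 56.7 and 59.4 CPM in IR, against 121, 117 and 87.0 CPM in DMBA and 93.7, 134 and 73.0 CPM in vehicle libraries (-0.94 ± 0.22, adjusted p = 0.0483). Rnf144a, a ubiquitin ligase, had 100, 114 and 91.9 CPM in IR, against 217, 153 and 158 CPM in DMBA and 189, 188 and 147 CPM in vehicle libraries (adjusted p = 0.0437). In Inhbb and Rnf144a it was IR that lay below vehicle while DMBA overlapped with it. Sgcb, a sarcoglycan, had 45.4, 43.1 and 52.9 CPM in IR and 97.3, 80.5 and 83.2 CPM in DMBA libraries (adjusted p = 0.0407). The calls of Mef2c, Inhbb, Rnf144a and Sgcb were lost in 13 to 16 of 22 alternatives, including most of those that left out 1 library.

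**Figure D4:**
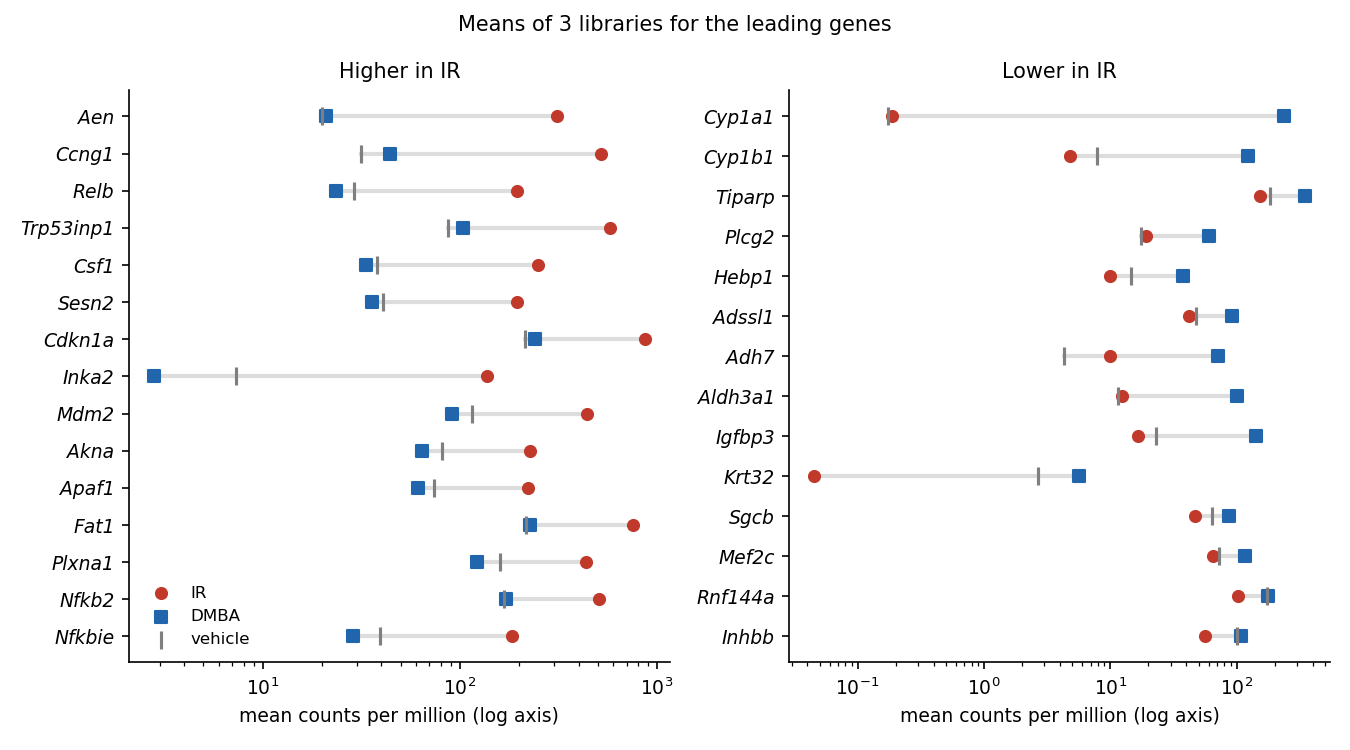
Mean CPM of 3 libraries on a log axis for the 15 leading genes higher in IR (left) and the 14 lower in IR (right), as red circles for IR, blue squares for DMBA and grey ticks for vehicle. On the left the DMBA square lies near the vehicle tick and IR far to the right, as in Aen at 310 against 21.0; on the right the pattern is reversed in Cyp1a1, Cyp1b1 and Tiparp, and in Rnf144a and Inhbb vehicle lies with DMBA.

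Other leading genes higher in IR came from outside the lists. Inka2, an inhibitor of a p21-activated kinase, had 131, 140 and 143 CPM in IR, against 4.37, 3.20 and 0.823 CPM in DMBA and 5.40, 12.8 and 3.74 CPM in vehicle libraries (log2 fold change 5.60 ± 0.48, adjusted p = 1.05e-06). Fat1, an atypical cadherin, had 749, 807 and 705 CPM in IR and 185, 262 and 234 CPM in DMBA libraries (1.73 ± 0.17, adjusted p = 4.75e-06). Plxna1, a semaphorin receptor, had 418, 442 and 452 CPM in IR and 147, 123 and 98.1 CPM in DMBA libraries (1.83 ± 0.18, adjusted p = 4.75e-06). Akna, a DNA-binding and centrosome protein, had 203, 246 and 232 CPM in IR and 62.3, 61.7 and 69.4 CPM in DMBA libraries (1.82 ± 0.17, adjusted p = 3.06e-06). In each of these, the lowest IR library was above every DMBA and vehicle library. Akna shares its locus with the antisense gene Aknaos, and reads of the pair could not be told apart without strand.

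A few calls higher in IR fell in other lists, beside 0.878% of all tested genes. Sesn2 and Cdkn1a among them are p53 calls already counted above. A list with 1 call is not described as a group by that gene. In the unfolded protein response 3 of 20 were called. Besides Sesn2 these were the sensors Eif2ak3, with 136, 163 and 168 CPM in IR and 87.6, 83.2 and 61.8 CPM in DMBA libraries (1.01 ± 0.19, adjusted p = 0.00723), and Ern1, with 106, 150 and 128 CPM in IR and 75.1, 64.7 and 50.8 CPM in DMBA libraries (1.01 ± 0.22, adjusted p = 0.027). Without IR 3 or without DMBA 3 the count was 1, and Ern1 was also lost without IR 2 or DMBA 2. Among cell cycle inhibitors and cyclins 2 of 16 were called, Cdkn1a and the retinoblastoma gene Rb1, which had 94.2, 131 and 101 CPM in IR, against 56.8, 63.5 and 59.7 CPM in DMBA and 90.6, 97.2 and 95.7 CPM in vehicle libraries (0.86 ± 0.19, adjusted p = 0.0272). In Rb1 it was DMBA that lay below vehicle, and IR overlapped with vehicle. Among secreted senescence genes Mmp2, a matrix protease, was higher (38.5, 57.2 and 36.6 CPM in IR and 8.60, 3.72 and 3.43 CPM in DMBA libraries, adjusted p = 0.0323) and Igfbp3 lower, of 17 tested. Smad3, a transducer of TGF-beta, was the 1 call among 38 Wnt, Notch and TGF-beta genes (80.5, 108 and 67.9 CPM in IR and 44.7, 41.0 and 26.9 CPM in DMBA libraries, adjusted p = 0.0209). Rrm1, a subunit of ribonucleotide reductase, was the 1 call among 34 genes of mitosis and replication (112, 124 and 104 CPM in IR and 61.1, 67.7 and 41.2 CPM in DMBA libraries, adjusted p = 0.0186). The calls of Rb1, Mmp2, Smad3 and Rrm1 were each lost without IR 2 and without DMBA 3. Leaving out IR 3 ended those of Rb1 and Mmp2, DMBA 1 those of Rb1 and Rrm1, and DMBA 2 those of Rb1, Mmp2 and Smad3.

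Other mitotic genes did not pass with all libraries. The median of the list was -0.20, and Mki67, a marker of cycling cells, had 43.1, 3.11 and 9.80 CPM in IR, against 88.6, 30.4 and 53.5 CPM in DMBA and 42.1, 41.5 and 101 CPM in vehicle libraries. The IR and DMBA libraries of Mki67 overlapped (log2 fold change -1.62 ± 0.61, adjusted p = 0.395). Without IR 1 Mki67 was called lower in IR, at -3.15 (adjusted p = 4.63e-04). Cenpf, a kinetochore protein, had 0.4998, 0.135 and 3.46 CPM in IR and 17.1, 4.87 and 17.3 CPM in DMBA libraries (adjusted p = 0.238).

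Melanocyte genes differed little in their medians, and with all libraries none of the pigment, melanocyte receptor or melanocyte marker genes was called. These counts of 0 depended on IR 1. Without it, 4 pigment genes were called higher in IR (Mlph, Sytl2, Pmel and Tyrp1) and 1 lower (Apoe), 1 receptor gene higher (Kit) and 2 lower (Fgfr2 and Gas6), and 3 of the 12 melanocyte markers higher (Kit, Pmel and Tyrp1). DESeq2 called 2 pigment genes and 2 receptor genes higher, 1 receptor gene lower and 1 melanocyte marker higher. The pigment list had 0 of 39 called in edgeR, beside 0.978% of all tested genes, and a median of 0.03. An unadjusted p below 0.05 was reached by 5 genes above and 1 below DMBA. Dct had 2115, 2275 and 3217 CPM in IR, against 2828, 2589 and 3121 CPM in DMBA and 3042, 3055 and 3112 CPM in vehicle libraries, with all groups overlapping (-0.17 ± 0.15, adjusted p = 0.892). Tyr, the rate-limiting enzyme of melanin synthesis, had 111, 123 and 150 CPM in IR and 146, 154 and 191 CPM in DMBA libraries (-0.35 ± 0.18, adjusted p = 0.682). Mitf, the master regulator of the lineage, had 736, 729 and 913 CPM in IR and 1105, 737 and 914 CPM in DMBA libraries (-0.21 ± 0.16, adjusted p = 0.842). Mlph, which links melanosomes to myosin, had 585, 947 and 758 CPM in IR, against 443, 536 and 452 CPM in DMBA and 479, 591 and 461 CPM in vehicle libraries, with no overlap of IR and DMBA (0.68 ± 0.17, adjusted p = 0.0769). Among 22 tested regulators of the lineage Rb1 was the 1 call. Zeb2, a transcription factor of melanocyte differentiation, had 422, 494 and 537 CPM in IR and 782, 692 and 680 CPM in DMBA libraries (-0.57 ± 0.14, adjusted p = 0.0592).

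The receptor Kit and its ligand Kitl, which sustain melanocyte stem cells, did not pass with all libraries either. Kit had 1523, 1850 and 2008 CPM in IR, against 1313, 1319 and 1181 CPM in DMBA and 1600, 1555 and 1542 CPM in vehicle libraries. All IR libraries were above all DMBA libraries, and IR overlapped with vehicle while DMBA lay below it (log2 fold change over DMBA 0.50 ± 0.13, adjusted p = 0.099). Without IR 1 Kit was called, at 0.61 (adjusted p = 0.00379). Kitl was low in these cells, with 13.995, 5.69 and 7.78 CPM in IR and 5.52, 3.59 and 8.92 CPM in DMBA libraries (0.61 ± 0.67, adjusted p = 0.934). Adra1a, an adrenergic receptor, had 5.62, 9.89 and 7.78 CPM in IR, against 34.7, 20.3 and 17.2 CPM in DMBA and 42.2, 26.9 and 20.7 CPM in vehicle libraries (-1.63 ± 0.39, adjusted p = 0.059). Nav1, a neuron navigator, had 326, 448 and 459 CPM in IR, against 764, 646 and 557 CPM in DMBA and 859, 840 and 759 CPM in vehicle libraries (-0.67 ± 0.16, adjusted p = 0.0529). Both lay lower in every IR library than in any DMBA or vehicle library and did not pass.

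Several further programs held no call between IR and DMBA in edgeR with all libraries, where 0.978% of all tested genes were called. Of 29 tested immediate early genes, an unadjusted p below 0.05 was reached by 2 above and 5 below DMBA, and the median was -0.21. Fos, a subunit of AP-1, had 3347, 3188 and 3174 CPM in IR and 4146, 4496 and 2941 CPM in DMBA libraries (-0.25 ± 0.14, adjusted p = 0.715). Egr1, an early transcription factor, had 1896, 1437 and 1575 CPM in IR and 2272, 2609 and 2084 CPM in DMBA libraries, with no overlap (-0.51 ± 0.14, adjusted p = 0.133). Without IR 1, 4 immediate early genes were called lower in IR (Ier3, Dusp1, Ccn1 and Egr1), with an adjusted p of 0.00906 for Egr1, and DESeq2 called 1 higher and 1 lower. The 20 heat shock genes had a median of -0.07 and the 24 genes of sterol and lipid synthesis one of -0.01. Without IR 1, 1 heat shock gene (Hspb1) and 2 lipid genes (Elovl4 and Abca12) were called lower in IR. The 30 ribosomal and 30 respiratory chain genes had medians of -0.09 each. In simulated counts, with spread set by expression level, a 2-fold change was recovered for 21.7% of genes and a 4-fold change for 57.6%. Small differences could thus go unseen. The simulation held no shift of a whole library, such as the keratinocyte level of IR 1, so its rates may not carry over to these data.

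The epidermal markers depended on IR 1. The median log2(FPKM + 1) of the basal keratinocyte markers was 6.36, 5.15 and 5.67 in IR, against 5.98, 6.34 and 6.32 in DMBA and 5.62, 5.60 and 5.88 in vehicle libraries. IR 1 lay just above the highest DMBA library, and IR 2 and IR 3 lay below all of them. The mean difference, IR minus DMBA, was -0.49 and did not pass a two-sided exact permutation test (p = 0.4, where 3 against 3 libraries cannot give less than 0.10). Krt14, a keratin of basal cells, had 1397, 260 and 511 CPM in IR, against 982, 1538 and 1154 CPM in DMBA and 609, 581 and 729 CPM in vehicle libraries (adjusted p = 0.626). Krt10, a keratin of differentiating cells, had 1977, 317 and 963 CPM in IR, against 1627, 2476 and 1706 CPM in DMBA and 746, 623 and 820 CPM in vehicle libraries (adjusted p = 0.564). Without IR 1, 215 of 17126 tested genes were called lower in IR (1.26%), and 13 of the 16 basal and 9 of the 15 tested differentiated epidermis markers were among them. With the keratinocyte level in the fit of all libraries, 85 of the 141 higher calls and 9 of the 16 lower calls were kept. Over all 22 alternatives, the number of p53 genes called higher in IR was between 12 and 26 and that of NF-kB genes between 8 and 17.

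**Figure D5:**
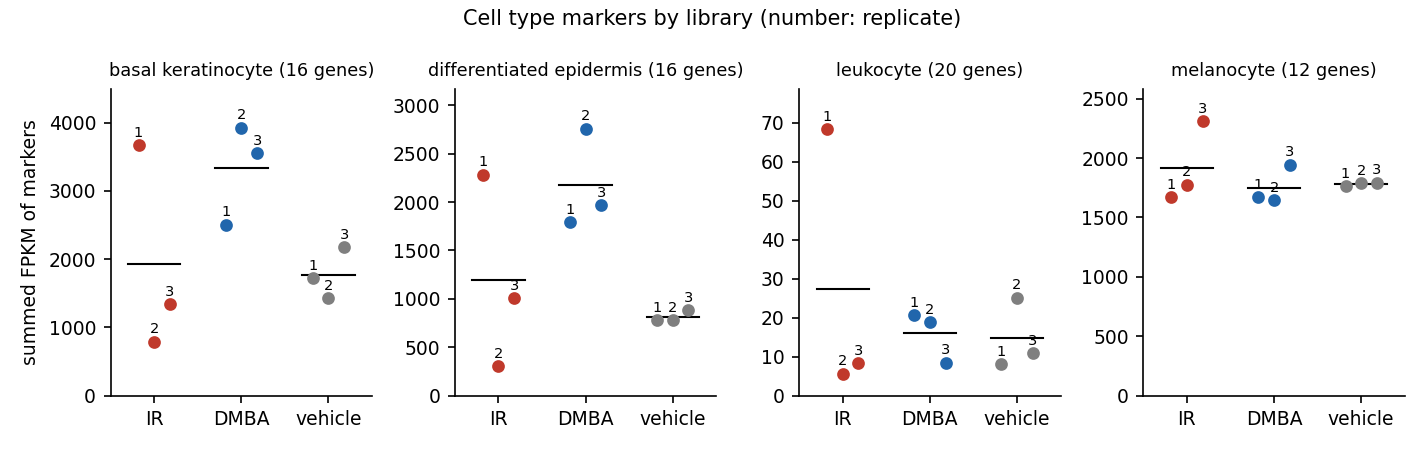
Summed FPKM of the markers of 4 cell types in each library, in the order IR, DMBA and vehicle, with the replicate number above each point and the mean as a line. IR 1 lies with the DMBA libraries in the 2 epidermal panels and is alone at 68.3 in the leukocyte panel, and the melanocyte sums run from 1668 to 2313 in IR and from 1644 to 1943 in DMBA libraries.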

How the data were processed

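RNA from FACS-purified melanocyte stem cells was isolated on RNeasy columns and made into libraries with a SMARTER stranded kit, per the labels' protocols. The authors deposited whole-number read counts per gene and FPKM values for 9 libraries in 1 table, per the file headers. The submitters' processing notes name, with no order, HTSeq 0.6.1 and HISAT2 2.0.1 besides bcl2fastq 2.17.1.14 and cutadapt 1.9.1. Neither the genome build of the table's coordinates nor the use of strand in counting is given in the sources used here.

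From the counts, genes were filtered with filterByExpr, scaled by TMM and tested with edgeR 4.0.16 (R 4.3.3; glmQLFit and glmQLFTest, 1 mean per group over all 9 libraries, contrast IR minus DMBA), and p-values were adjusted by Benjamini-Hochberg over all 16051 tested genes. The biological coefficient of variation was 49.0%. Genes without a symbol, 1438 of 55359, held 0.121% to 0.175% of counts and stayed in the fit. The script was tested on simulated counts with changed genes, in which 80.0% of 8-fold changes were recovered and 7 unchanged genes were called. Marker levels were tested by an exact permutation test of the median log2(FPKM + 1) per library. Ratios of summed counts with exact binomial 95% intervals are given where a group held at most 30 counts. Intervals cover counting error only. Replicates of a group differed beyond sampling noise (chi-square per degree of freedom 14.9 to 36.3).

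Members and gene lists were chosen with earlier results of these data known. The genes named with values were, in each direction, the 15 called genes with the smallest p whose groups did not overlap, whose higher group averaged 1 FPKM or more and whose name was not that of a predicted gene (14 genes lower in IR met this), up to 4 members of each list with the smallest p, and a fixed set: Trp53, Mdm2, Cdkn1a, Ccng1, Relb, Nfkbia, Ahr, Cyp1a1, Cyp1b1, Tiparp, Kit, Kitl, Mitf, Dct, Tyr, Ptgs2, Fos, Mki67, Krt14 and Krt10. Alternatives changed the scaling, the filter, the libraries in the fit, the tool (DESeq2 1.42.0 on counts, limma 3.58.1 on log2 FPKM), or added each library's basal keratinocyte level to the fit as a covariate. Correlations of same-numbered deviations from the group means were -0.087, -0.052 and 0.021, so the replicate numbers were not taken to pair libraries.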

Additional observations from a re-analysis of the deposited data

How the results depend on the processing

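With all libraries and the filter on low counts edgeR called 157 genes, and without a filter 371 genes were called, 243 higher and 128 lower in IR. DESeq2 called 310, 245 higher and 65 lower, with 636 adjusted p-values missing. On log2 FPKM, limma called 89 with a pseudocount of 1 (78 higher, 11 lower), 73 with 0.1 (63 and 10), 101 with 5 (86 and 15) and 58 without a filter (50 and 8). Leaving out 1 library in turn gave 96 to 421 calls, 85 to 206 higher and 11 to 215 lower, with the highest values without IR 1. A fit with the replicate block called 142 (128 and 14), and leaving out IR 2 and vehicle 2 together, chosen after seeing the data, called 106 (95 and 11). The basal keratinocyte covariate left 120 calls (103 and 17). Of the 141 higher genes 41 kept their call in all 22 alternatives, and of the 16 lower genes 4 did: Cyp1a1, Cyp1b1, Tiparp and the predicted gene Gm29863. The cause of these shifts was not tested. Signs turned as follows. With the covariate the log2 fold change was 0.00015 for Ccnd2, 0.02626 for Trp63, 0.02956 for Col17a1, 0.06091 for Perp, 0.1032 for Krt10, 0.02778 for Dusp1, 0.1059 for Krt14 and 0.2477 for Dsg1a. Trp63, Col17a1, Perp and Krt14 are among the markers from which the covariate was made, so their shift was largely fixed in advance. Leaving out 1 library gave -0.6268 to 2.458 for H2-Ab1, -1.062 to 2.557 for H2-Aa, -2.034 to 0.8814 for Cd74 and -0.6742 to 0.08055 for Fbln1. For Cd74 limma gave -0.538 with a pseudocount of 1, with and without the filter, -0.7645 with 0.1 and -0.1713 with 5, and the replicate block gave -0.3045. None of these genes was called with all libraries.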

Other observations

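The genes below were chosen after their values were seen, and no explanation was tested for them. Several predicted transcripts stood with the p53 genes on the radiation side. Gm37795, which overlaps the annotation of Mir34a on the same strand, had 30.2, 33.9 and 31.4 CPM in IR and 0.128, 0.128 and 0.412 CPM in DMBA libraries. Its summed counts were 710 in IR and 5 in DMBA libraries, a ratio of 141 (95% exact interval 60.3 to 437, counting error only). Gm13067, which lies 11562 bases from Gm37795, had 20.9, 45.0 and 22.8 CPM in IR and 0, 0.128 and 0.686 CPM in DMBA libraries. Gm42047 had 727, 1105 and 777 CPM in IR, against 26.6, 16.0 and 41.6 CPM in DMBA and 28.5, 34.7 and 43.0 CPM in vehicle libraries (adjusted p = 1.01e-08). On the DMBA side, Gm29863 had 13.1, 7.99 and 13.1 CPM in IR, against 42.8, 53.3 and 55.0 CPM in DMBA and 23.9, 22.9 and 25.3 CPM in vehicle libraries (adjusted p = 3.85e-04). In Gm29863 IR lay below vehicle and DMBA above it.

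Among the genes called higher in IR there were some in which DMBA lay below vehicle. Ror1, a receptor of Wnt ligands, had 19.5, 43.5 and 32.9 CPM in IR, against 9.76, 9.999 and 8.65 CPM in DMBA and 17.8, 34.7 and 18.1 CPM in vehicle libraries. Mcam, a cell adhesion molecule, had 52.1, 34.3 and 25.2 CPM in IR, against 13.7, 12.1 and 11.5 CPM in DMBA and 30.6, 24.5 and 17.7 CPM in vehicle libraries. In both, IR overlapped with vehicle and every DMBA library was below both groups. Both calls were fragile. That of Ror1 was lost in 11 of 22 alternatives, among them leaving out IR 2, IR 3 or any DMBA library and the keratinocyte covariate (adjusted p = 0.588). That of Mcam was lost in 10, among them leaving out IR 1, IR 2 or any DMBA library.

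Cd274, which encodes the checkpoint ligand PD-L1, had 228, 168 and 125 CPM in IR, against 83.1, 76.0 and 68.6 CPM in DMBA and 84.8, 79.4 and 108 CPM in vehicle libraries. It was called higher in IR than in DMBA (log2 fold change 1.19, adjusted p = 0.00541), with IR 1 the highest library, as it was for the leukocyte markers.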
